A study of Mus musculus with 6 samples.

Results

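The BAF complexes, the mammalian SWI/SNF chromatin remodelers, were followed here through 10 of their subunit genes whose use differs between stem cells, neural progenitors and neurons: Smarca2, Smarca4, Smarcc1, Smarcc2, Smarcd3, Actl6a, Actl6b, Phf10, Dpf1 and Dpf3. A gene was read from a probe set that carried its symbol and no other, and the brightest such probe set over the 6 arrays stood for it. This gave 8 of the 10 genes, out of 22180 genes on the array. Actl6a and Smarcd3, the other two, were matched only by probe sets that also carry the symbol of a second gene, and they were not analysed here.

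RNA came from mouse embryonic stem cells infected with lentivirus encoding a control shRNA, an shRNA against Chd4 or an shRNA against Mbd3, which encode 2 subunits of the NuRD complex, a nucleosome remodeler with histone deacetylase activity. Each of these 3 lines was taken as stem cells grown with serum and leukemia inhibitory factor on gelatin (day 0), and as aggregates kept for 4 days in a serum-replacement medium for neural differentiation (day 4). All 6 groups carry a lentiviral shRNA, and each group is 1 Mouse Gene 2.0 ST array. Whether a line is a clone or a pool is not stated, nor how many hairpins were used per target or whether cultures were repeated. A difference between 2 arrays therefore has no replicate check and no test, and so few arrays limit the precision.

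BAF complexes use the energy of ATP to move or evict nucleosomes, and they are assembled from several subunit positions, each filled by 1 of a set of paralogs. In embryonic stem cells the complex is built on the ATPase BRG1, encoded by Smarca4, with the scaffold protein encoded by Smarcc1. In neural progenitors the paralogous ATPase BRM, encoded by Smarca2, and the scaffold protein encoded by Smarcc2 are used as well. When progenitors leave the cell cycle, the actin-related protein of Actl6a gives way to that of Actl6b, and the PHD-finger protein of Phf10 gives way to those of Dpf1 and Dpf3.

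The labels were checked first. The Chd4 intensity was 973 in control and 290 in Chd4-knockdown cells at day 0, and 1021 against 727 at day 4. The Mbd3 intensity was 216 in control and 92.8 in Mbd3-knockdown cells at day 0, and 183 against 138 at day 4. At day 0, 0.03% (Chd4) and 0.11% (Mbd3) of genes compared were as far below control as the target or farther. By day 4 the target was only 1.40-fold (Chd4) and 1.33-fold (Mbd3) lower, and these shares were 18.9% and 21.0%. The day 4 arrays therefore show a weak difference in the targeted transcripts. All 8 embryonic stem cell markers listed lay at or above 41.4, the highest array median and the floor used here, on every array. Their summed intensity went from 9275 at day 0 to 2231 at day 4 in control, from 8643 to 6286 after Chd4 knockdown and from 8931 to 6022 in the Mbd3 knockdown. The summed intensity of 8 neural progenitor markers went from 425 to 5287 in control, from 356 to 673 in the Chd4 knockdown and from 373 to 1009 in the Mbd3 knockdown. Of 10 neuronal markers, 10 were at or above the floor in control at day 4, whereas Dcx, Nhlh1, Neurod4 and Elavl4 were under it on every other array. Their summed intensity went from 2274 to 3433 in control, from 2273 to 1655 with Chd4 knocked down and from 1403 to 1432 with Mbd3 knocked down. Stmn2, a neuronal marker that was bright on every array, was lower at day 4 in each line, at 1517 and 1156 in control. The summed intensities of 7 mesoderm and endoderm markers (332 to 363), 7 muscle markers (334 to 472) and 5 fibroblast markers (241 to 340) are given as their ranges over the arrays. Mesp1, Myod1, Col3a1 and Dcn of these lists were under the floor on every array. The day 4 knockdown arrays thus carried a lower neural and a higher stem cell signal than the day 4 control array. Its part in the BAF values below was not tested, and in bulk RNA fewer cells of a type and less RNA per cell cannot be told apart.

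**Figure D1:**
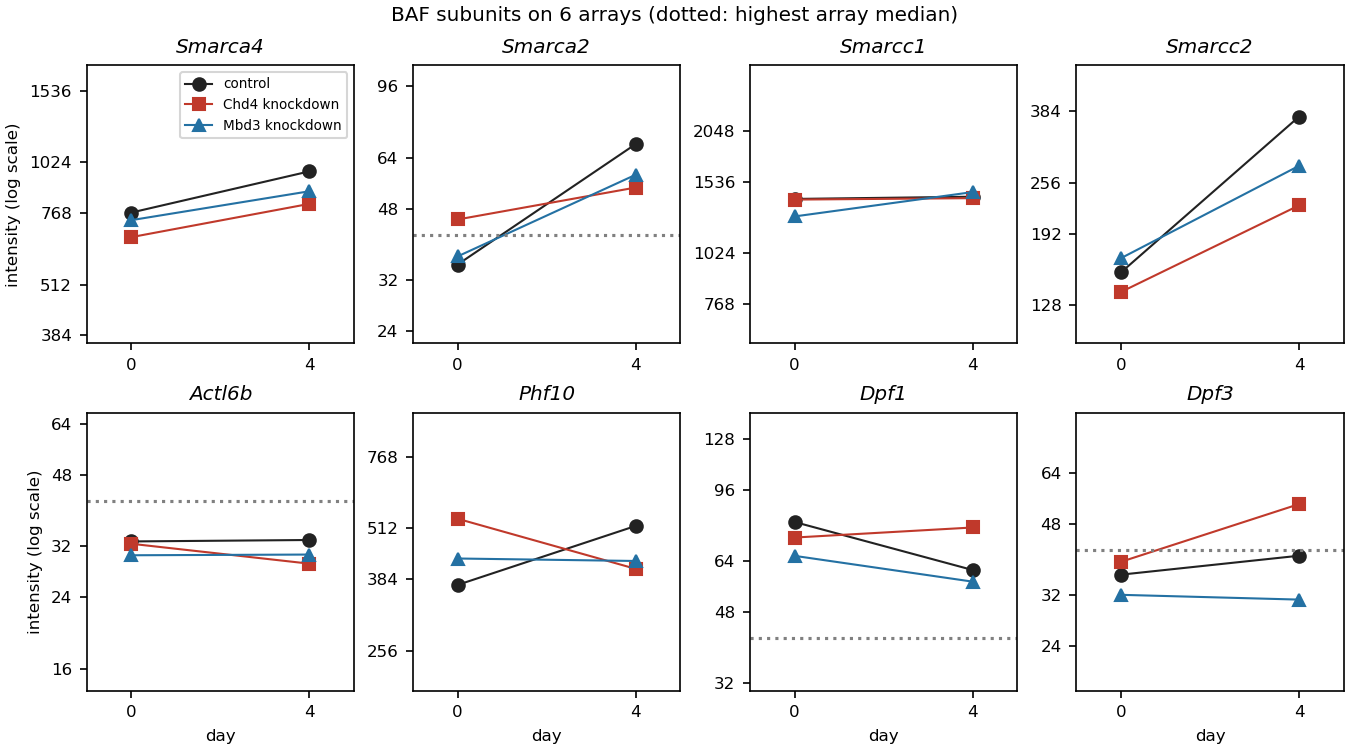
Intensity of the 8 measured BAF subunits on a log scale (vertical axis) at day 0 and day 4 (horizontal axis) in control (circles), Chd4-knockdown (squares) and Mbd3-knockdown cells (triangles), 1 array per point; the dotted line is the highest array median, 41.4, and each panel spans the same fold range. Smarcc2 goes from 154 to 373 in control, to 225 after Chd4 knockdown and 282 in the Mbd3 knockdown, whereas Smarcc1 stays between 1261 and 1447 and Actl6b under the dotted line.

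The scaffold subunits gave the clearest contrast between paralogs. Smarcc1 and Smarcc2 encode related proteins (BAF155 and BAF170) that hold the core of the complex together. The Smarcc2 intensity was 154 at day 0 and 373 at day 4 in control cells, 138 and 225 in the Chd4 knockdown, and 167 and 282 in the Mbd3 knockdown. The 3 day 4 arrays were all above the 3 day 0 arrays, and the control was the highest of them. Smarcc2 was thus 2.42-fold higher at day 4 than at day 0 in control cells, and 1.64-fold (Chd4) and 1.69-fold (Mbd3) higher in the knockdown lines. The Smarcc1 intensity was 1392 and 1410 in control, 1387 and 1398 in the Chd4 knockdown, and 1261 and 1447 in the Mbd3 knockdown. Its highest array exceeded its lowest by 1.15-fold, the Mbd3 knockdown at day 0 being the lowest.

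Of the genes compared between the control arrays, 5.24% were as far above day 0 as Smarcc2 or farther. In the knockdown lines this share was 4.03% (Chd4) and 3.30% (Mbd3). Genes entered a comparison if their brighter value was no less than the median of its own array. Over all 6 arrays, limma, fitted with shRNA and day as additive terms, gave Smarcc2 a day difference of 0.91 on the log2 scale (SE 0.16, 95% interval 0.49 to 1.34), higher in 3 of 3 lines. It did not pass over 12926 genes (limma, adjusted p = 0.18). The same fit gave Smarcc1 a day difference of 0.08 (SE 0.12, 95% interval -0.24 to 0.39; limma, adjusted p = 0.78). Without the control line, limma gave Smarcc2 a day difference of 0.73 (SE 0.14) with an adjusted p = 0.025, where 683 genes in all passed. That fit treats different knockdowns as replicates of each other, with 1 residual degree of freedom. Without the Chd4 line and without the Mbd3 line, limma gave Smarcc2 1.02 and 0.99 with adjusted p = 0.35 and 0.75, and 0 genes passed in either.

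The bases before the transcription starts of Smarcc2, Smarcc1 and Smarca2 are shown. Smarcc2 and Smarca2 had higher day 4 values in every line, whereas Smarcc1 differed little. Smarca4 was also higher at day 4 in every line, and its bases are not printed. The printed bases are RefSeq sequences of mouse build GRCm38.p6, all on the plus strand. They run from 250 bases before the listed start up to the outermost annotated start of the gene. Capitals mark the GC box GGGCGG on either strand, a motif bound by SP-family factors.
Smarcc2, chr10:128458986-128459181: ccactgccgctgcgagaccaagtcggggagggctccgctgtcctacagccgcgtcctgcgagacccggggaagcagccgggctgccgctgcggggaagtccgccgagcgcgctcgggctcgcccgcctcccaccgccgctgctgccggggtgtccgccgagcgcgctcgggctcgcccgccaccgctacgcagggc
Smarcc1, chr9:110131774-110132023: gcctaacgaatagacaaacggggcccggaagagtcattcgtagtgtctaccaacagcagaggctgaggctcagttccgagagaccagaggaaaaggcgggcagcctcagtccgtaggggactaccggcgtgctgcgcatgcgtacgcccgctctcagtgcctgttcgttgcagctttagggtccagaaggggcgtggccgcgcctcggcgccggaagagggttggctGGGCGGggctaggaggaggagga
Smarca2, chr19:26604910-26605072: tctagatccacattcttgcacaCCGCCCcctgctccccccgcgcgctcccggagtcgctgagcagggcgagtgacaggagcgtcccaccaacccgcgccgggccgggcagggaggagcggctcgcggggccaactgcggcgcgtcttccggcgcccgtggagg

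Over the full 250 bases the GC content was 80.8% for Smarcc2, 63.6% for Smarcc1 and 68.4% for Smarca2, against a median of 52.4% over 32851 promoters of the same table. These windows held 40, 21 and 28 CpG dinucleotides, against a median of 6. The GC box was found in 8 of the 10 listed genes' windows and in 32.7% of all promoters, and the windows of Smarcc2 and Actl6b held none. In Smarcc1 it began at position -23 from the start, and in Smarca2 at positions -228 and -69, the last of them within a transcribed part that is not printed. The Smarca4 window had a GC content of 70.8%, 25 CpG dinucleotides and 3 GC boxes. The left part of the REST-binding element RE1, TTCAGCACC, was in none of the 10 windows and in 0.301% of all promoters. Its right part, GGACAG, was in the Smarcc2 window at position -213 and in 18.7% of all promoters, and the E-box CAGCTG was in the windows of Smarcd3 and Phf10 and in 13.0% of all. The motifs were searched on both strands, and no E-box or RE1 match overlapped a GC box in these windows. A match is a description of letters and not a binding site.

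The ATPase subunits were both higher at day 4 in every line. The Smarca4 intensity was 770 and 973 in control, 670 and 809 in the Chd4 knockdown, and 738 and 869 in the Mbd3 knockdown, at day 0 and day 4. Within each day control was highest and the Chd4 knockdown lowest. The day 4 folds were 1.26, 1.21 and 1.18 in the same order, and the additive fit gave a day difference of 0.28 on the log2 scale (SE 0.11; limma, adjusted p = 0.35). In control, 27.3% of genes compared were as far above day 0 or farther.

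Smarca2, the gene of the alternative ATPase, was dim. Its intensity was 35.0 and 69.3 in control, 45.2 and 54.1 in the Chd4 knockdown, and 36.6 and 58.2 in the Mbd3 knockdown. All 3 day 4 arrays were above the floor of 41.4, whereas at day 0 only the Chd4 knockdown was. With the floor in place of the dimmer value, the day 4 value of Smarca2 exceeded day 0 by at least 1.67-fold in control and by at least 1.41-fold in the Mbd3 knockdown. In the Chd4 knockdown, where both values were above the floor, the log2 difference was 0.26. The additive fit gave 0.64 on the log2 scale (SE 0.18, 95% interval 0.17 to 1.10), higher in 3 of 3 lines, and it did not pass over all genes (limma, adjusted p = 0.25). It takes the day 0 values under the floor in 2 lines as measured, so its size and interval are uncertain. The unadjusted limma p-values of Smarca2 and Smarcc2, 0.017 and 0.0031, were under 0.05, as were those of 15.2% of all genes tested.

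The actin-related subunit of neurons stayed under the floor. Actl6b, whose product replaces that of Actl6a in postmitotic neurons, had intensities of 32.9 and 33.2 in control, 32.5 and 29.0 in the Chd4 knockdown, and 30.4 and 30.6 in the Mbd3 knockdown. All 6 arrays were under the floor and their whole range was 1.14-fold, so no fold is given. Actl6b was under the floor also in control at day 4, where the neuronal markers Nhlh1 and Neurod4 stood at 266 and 201. Of the 10 neuronal markers listed, 8 were 2-fold or more higher at day 4 in control. The others were Rbfox3, at 57.4 and 73.0, and Stmn2, which was lower at 1517 and 1156. How many cells were postmitotic neurons was not measured. An intensity under the floor does not show that the gene is not transcribed, since no detection call was used.

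The PHD-finger subunits had day differences of either sign, depending on the line. Phf10, the subunit of stem cells and dividing progenitors, had intensities of 372 and 520 in control, 541 and 407 in the Chd4 knockdown, and 432 and 426 in the Mbd3 knockdown. The Chd4 knockdown at day 0 was the highest array and the control at day 0 the lowest. Phf10 had a log2 day difference of 0.48 in control cells, -0.41 after Chd4 knockdown and -0.02 after Mbd3 knockdown. A second, dimmer Phf10 probe set read 40.0 and 80.3 in control, 51.6 and 60.2 in the Chd4 knockdown, and 55.2 and 61.7 in the Mbd3 knockdown. Its control value at day 0 was under the floor. Its log2 day differences, 1.01, 0.22 and 0.16, were positive in all lines, so the probe sets disagree in direction for both knockdown lines. They share the order of the lines at day 4, with control highest, and a control that is lowest at day 0. The additive fit gave the brighter probe set a day difference of 0.02 on the log2 scale (SE 0.20; limma, adjusted p = 0.98).

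Dpf1, the first of the neuronal replacements of Phf10, was at 79.9 and 60.8 in control, 73.2 and 77.5 in the Chd4 knockdown, and 65.9 and 57.0 in the Mbd3 knockdown. It was lower at day 4 in control and the Mbd3 knockdown and slightly higher in the Chd4 knockdown, with log2 differences of -0.39, -0.21 and 0.08. The additive fit gave -0.17 (SE 0.14; limma, adjusted p = 0.58). Dpf3, the other replacement and also a subunit of muscle cells, read 35.9 and 40.0 in control, 38.7 and 53.6 in the Chd4 knockdown, and 32.1 and 31.2 in the Mbd3 knockdown. The Chd4 knockdown at day 4 was the single array above the floor, at least 1.29-fold above each of the others. Dpf2, which fills the same position in most cell types, was at 576 and 721 in control, 518 and 626 after Chd4 knockdown and 612 and 598 in the Mbd3 knockdown.

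Counted at 2-fold, 7 of the 8 measured subunits could be compared between the days in control, and 1 of them, Smarcc2, was higher and 0 were lower. Of all 13831 genes compared, 8.13% were higher and 4.7% lower by that size. After Chd4 knockdown 0 of 7 subunits differed by 2-fold in either direction, beside 2.86% of all genes, and after Mbd3 knockdown 0 of 6, beside 2.7%. At 1.5-fold 2 of 7 subunits were higher in control cells, beside 17.3% of all genes. With Chd4 knocked down 1 of 7 was, beside 6.21%, and with Mbd3 knocked down 2 of 6, beside 5.69%. One of the latter is Smarca2, whose day 0 value was under the floor and whose bound of 1.41-fold does not reach 1.5-fold. For the control, Chd4 and Mbd3 lines the median log2 day difference of the subunits compared was 0.34, 0.26 and 0.22, beside 0.003, -0.01 and -0.03 over all genes compared. Smarca2 in the control and Mbd3 lines, and Dpf3 in the control and Chd4 lines, entered through their day 4 value alone. Such entries are positive by the filter, so the medians are not read as a shared rise of the subunits. limma called 0 of the 6 subunits tested and 0 of 12926 genes between the days, while 2 subunits and 1962 genes had an unadjusted p under 0.05. The fit takes any departure of a line from the shared day difference as error, so 0 calls do not show that nothing differed.

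**Figure D2:**
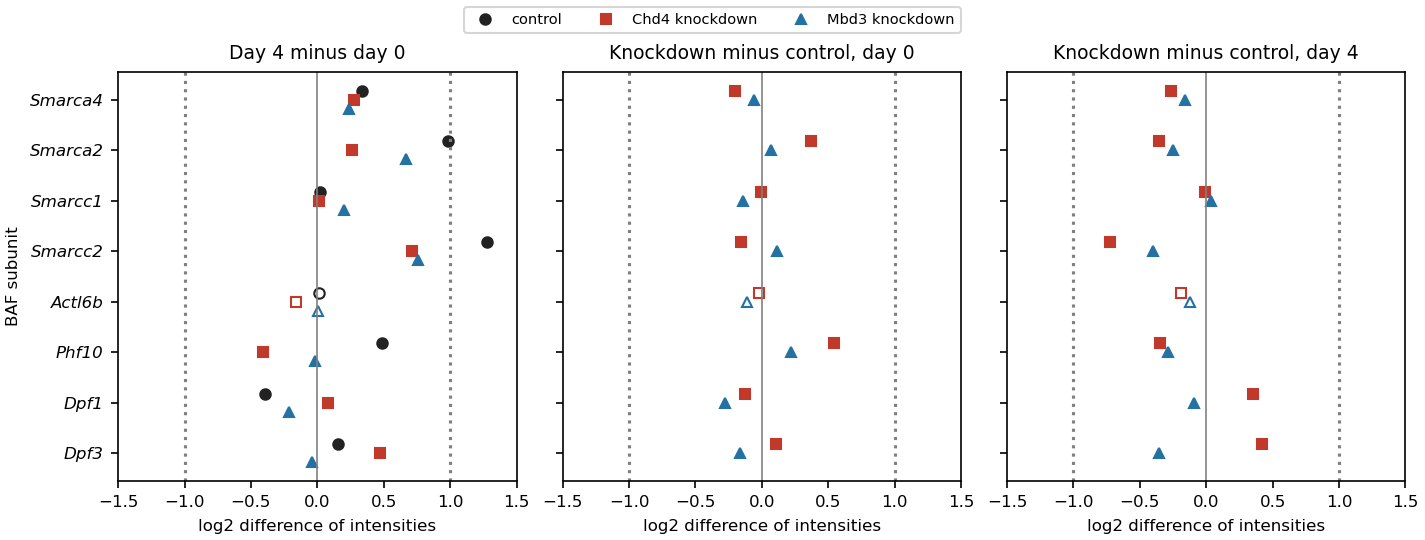
Log2 difference of intensities (horizontal axis) for the 8 BAF subunits (vertical axis) between day 4 and day 0 in each line (left) and between each knockdown and control at day 0 (middle) and day 4 (right), 1 pair of arrays per point. Dotted lines mark 2-fold and open symbols a gene under the floor on every array; Smarcc2 in control, at 1.28, is the single point past 2-fold.

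In stem cells few genes of any kind differed from control by 2-fold. At day 0, 0 of 6 subunits compared differed by 2-fold between Chd4 knockdown and control and 0 of 5 between Mbd3 knockdown and control. The same size was reached by 1.26% and 0.68% of all genes, so counts of 0 among so few subunits show nothing particular to them. Phf10 stood farthest from control, at a log2 difference of 0.54 in the Chd4 knockdown, and 4.98% of genes compared were as far above control or farther. The second Phf10 probe set gave 0.37 there, and in the Mbd3 knockdown the probe sets gave 0.22 and 0.47. Smarcc2 was at -0.16 after Chd4 and 0.12 after Mbd3 knockdown, Smarca4 at -0.20 and -0.06, Smarcc1 at -0.01 and -0.14, and Dpf1 at -0.13 and -0.28. Smarca2 was at least 1.09-fold higher in the Chd4 knockdown than in control.

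At day 4 Smarcc2, Smarca2, Smarca4 and Phf10, 4 of the 7 subunits compared, stood below control in both knockdowns. The comparisons share the control array, so their likeness is not independent. The control at day 4 was the highest of all arrays for 33.2% of 12926 genes, and each of those genes was below control in both knockdowns. The full share of genes below control in both was not counted, so 4 of 7 is not read as particular to the subunits. In the Chd4 knockdown Smarcc2 was 1.65-fold lower than control, Smarca2 1.28-fold and Phf10 1.28-fold, and Smarca4 had a log2 difference of -0.27. In the Mbd3 knockdown Smarcc2 was 1.32-fold lower, Phf10 1.22-fold, Smarca2 1.19-fold and Smarca4 1.12-fold. Chd4 itself was 1.40-fold lower than control in its knockdown at this day, and Mbd3 1.33-fold lower in its own. Smarcc1 was at 1398 and 1447 in the knockdowns beside 1410 in control. Dpf1 was on either side of control, at a log2 difference of 0.35 after Chd4 and -0.10 after Mbd3 knockdown. Dpf3 was at least 1.29-fold higher than control after Chd4 knockdown, and its control and Mbd3-knockdown values were both under the floor.

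At 2-fold, 0 of the 7 subunits compared differed from control at day 4 after Chd4 knockdown, beside 11.7% of all genes, and 0 of 7 after Mbd3 knockdown, beside 8.34%. At 1.5-fold, Smarcc2 was lower in the Chd4 knockdown, as were 15.4% of all genes. The median log2 difference of the subunits compared was -0.27 after Chd4 knockdown and -0.25 after Mbd3 knockdown, beside -0.04 and -0.06 over all genes. Dpf3, under the floor in control and the Mbd3 knockdown, entered the Mbd3 comparison through its control value alone, which makes its difference negative by the filter. Over both days, limma gave Smarcc2 a Chd4 effect of -0.44 (SE 0.20; adjusted p = 0.62) and an Mbd3 effect of -0.14 (SE 0.20; adjusted p = 0.91). It called 0 of 6 subunits and 0 of 12926 genes for either knockdown. No subunit reached an unadjusted p under 0.05 in these contrasts, which 7.84% of genes (1014) did for Chd4 and 5.01% (647) for Mbd3. In simulated data the fit recovered 1% of 2-fold Chd4 changes and 0% of 2-fold Mbd3 changes, so 0 calls do not show that nothing differed.

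Between the knockdowns 0 subunits differed by 2-fold, 0 of 6 at day 0 and 0 of 7 at day 4, beside 1.05% and 1.1% of all genes. At day 4 Smarcc2 was 1.25-fold and Smarca4 1.07-fold lower in the Chd4 than in the Mbd3 knockdown, Dpf1 was 1.36-fold higher, and Dpf3 was at least 1.29-fold higher. At 1.5-fold, 1 of 7 subunits (Dpf3, whose Mbd3-knockdown value is under the floor) was higher, as were 2.7% of all genes. limma called 0 of 6 subunits and 0 of 12926 genes between the knockdowns (0 subunits and 358 genes, 2.77%, at an unadjusted p under 0.05), and the interval for Smarcc2 was -0.82 to 0.22 on the log2 scale. For Dpf1 it was -0.17 to 0.76.

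Paralogs that share a position were set side by side as log2 day differences, since intensities of different probe sets cannot be compared as levels. The day difference of Smarcc2 exceeded that of Smarcc1 by 1.26 in control cells, by 0.70 after Chd4 knockdown and by 0.56 after Mbd3 knockdown. The Smarca2 day difference exceeded that of Smarca4 by 0.65 in control and 0.43 in the Mbd3 knockdown, whereas in the Chd4 knockdown the genes differed by -0.01. These Smarca2 values rest on intensities below the floor in 2 lines. Dpf1 went the other way from its predecessor in control, with a day difference 0.88 below that of Phf10 (log2 differences of -0.39 and 0.48). In the Mbd3 knockdown the Dpf1 value was below that of Phf10 as well, by a difference of -0.19, but with Chd4 knocked down it was above, by 0.49. Dpf3 minus Phf10 was -0.33 in control, 0.88 with Chd4 knocked down and -0.02 with Mbd3 knocked down, with most Dpf3 values under the floor. These Phf10 values are those of its brighter probe set. The dimmer one had day differences of 1.01 in control, 0.22 in the Chd4 line and 0.16 in the Mbd3 line. In the Chd4 line Dpf1, at 0.08, was below that 0.22, and Dpf3, at 0.47, was above it. Whether Dpf1 stood above Phf10 there thus depends on the probe set.

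Ss18l1 encodes CREST, a calcium-responsive coactivator that replaces the protein of Ss18 in neuronal complexes. Ss18l1 was at 115 and 147 in control, 116 and 117 in the Chd4 knockdown, and 111 and 110 in the Mbd3 knockdown. Ss18 was at 503 and 374 in control, 403 and 450 in the Chd4 knockdown, and 482 and 462 in the Mbd3 knockdown. The control at day 4 was thus the highest array for Ss18l1 and the lowest for Ss18. The day difference of Ss18l1 exceeded that of Ss18 by 0.79 in control, by 0.04 in the Mbd3 knockdown and by -0.14 in the Chd4 knockdown. limma gave the genes day differences of 0.12 (SE 0.14, adjusted p = 0.69) and -0.11 (SE 0.16, adjusted p = 0.76).

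**Figure D3:**
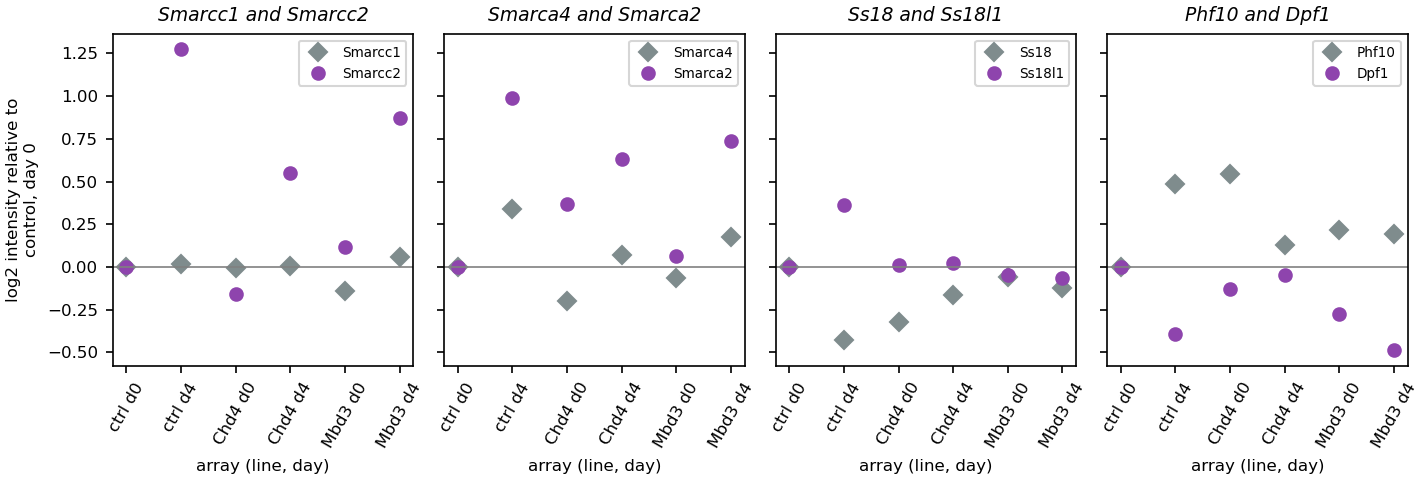
Log2 intensity relative to the control array of day 0 (vertical axis) on the 6 arrays (horizontal axis; ctrl, control; d0 and d4, day 0 and day 4) for 4 pairs of subunits that share a position, with the stem cell form as diamonds and the progenitor or neuronal form as circles. Smarcc2 reaches 1.28 in control at day 4 while Smarcc1 is at 0.02, and Dpf1 is at -0.39 where Phf10 is at 0.48.

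Other subunits of the BAF, PBAF and noncanonical BAF complexes were read for context, and all 21 listed were measured. Between the days in control, 2 of 20 compared were higher by 2-fold, Smarce1 and Arid1b, and 0 were lower, beside 8.13% and 4.7% of all genes, so the counts are near those over all genes. Smarce1, which encodes an HMG-box subunit of the core, was at 117 and 271 in control, 117 and 135 in the Chd4 knockdown, and 139 and 165 in the Mbd3 knockdown. Arid1b, a DNA-binding subunit of canonical BAF, was at 252 and 532 in control, 164 and 210 in the Chd4 knockdown, and 268 and 289 in the Mbd3 knockdown. For both genes the control at day 4 stood well apart from the 5 other arrays. At day 4, Arid1b was 2.53-fold and Smarce1 2.01-fold lower in the Chd4 knockdown than in control, the 2 other subunits past 2-fold there, beside 6.64% of all genes that were lower. In the Mbd3 knockdown they were 1.84-fold and 1.64-fold lower.

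At 1.5-fold, 6 of the 20 subunits were higher at day 4 in control, namely Smarce1, Arid1b, Bcl7a, Bicra, Brd7 and Arid2, and 1, Bicral, was lower, beside 17.3% and 11.2% of all genes. For the higher ones, the day difference was smaller in each knockdown than in control for 6 of 6, a count that follows in part from choosing them on the control arrays. Arid2, a subunit of PBAF, differed least between the lines, with log2 day differences of 0.69 (control), 0.67 (Chd4) and 0.65 (Mbd3; limma, 0.67, SE 0.11, adjusted p = 0.18). Brd7, another PBAF subunit, had 0.77, -0.03 and 0.26, and Bcl7a 0.98, 0.56 and 0.31. Smarcd2, a paralog of Smarcd3, was lower at day 4 in 3 of 3 lines with -0.52, -0.17 and -0.09. The brighter of the probe sets for Smarcd1 gave -0.03, -0.36 and -0.12, and the dimmer one -0.32, -0.11 and 0.11. limma called 0 of the 20 subunits tested between the days or in either knockdown contrast. At an unadjusted p under 0.05 stood 3 for day (Arid2, Bcl11a and Bcl7a, higher), beside 15.2% of all genes, a like share. For Chd4 there were 3 (Arid1b, Arid2 and Bcl7a, lower), beside 7.84% of all genes, and for Mbd3 there were 0, beside 5.01%. Bcl11a was under the floor at day 0 in the Chd4 and Mbd3 knockdowns (38.7 and 33.9), so the size of its day difference is uncertain.

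**Figure D4:**
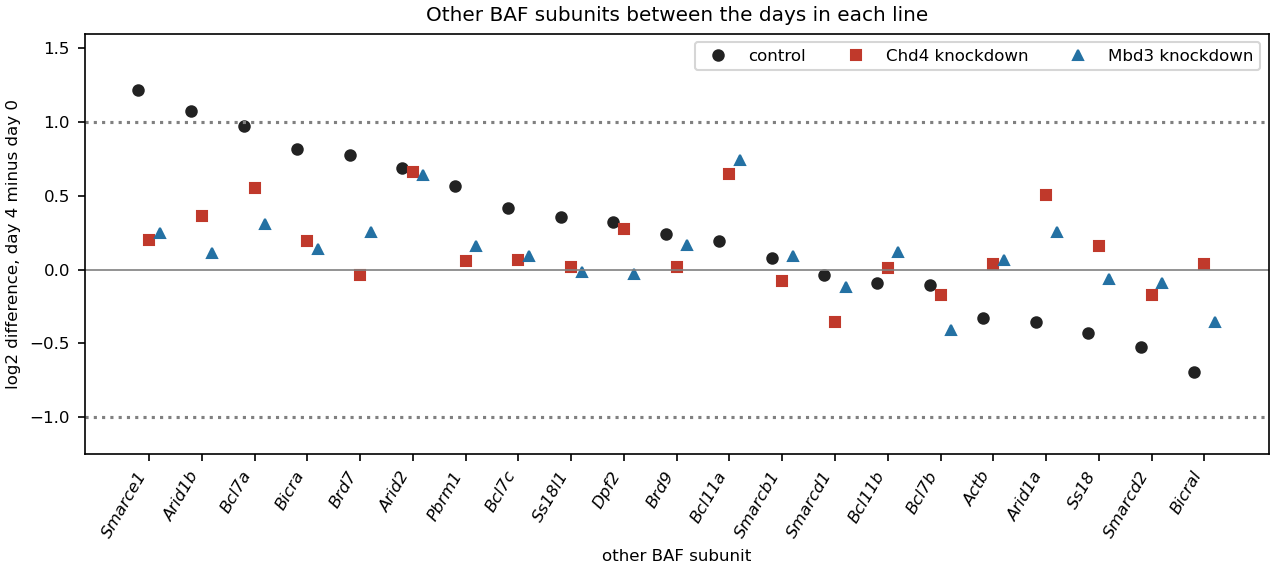
Log2 difference between day 4 and day 0 (vertical axis) for the 21 other BAF, PBAF and noncanonical BAF subunits (horizontal axis, ordered by the control value) in control (circles), Chd4-knockdown (squares) and Mbd3-knockdown cells (triangles), 1 pair of arrays per point, with dotted lines at 2-fold. Smarce1 (1.22) and Arid1b (1.08) are past 2-fold in control, and no knockdown point is.

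The exchange of Actl6a for Actl6b in neurons is known to depend on relief from the repressor REST and on the microRNAs miR-9* and miR-124, which repress Actl6a. Rest was at 543 and 211 in control, 465 and 352 in the Chd4 knockdown, and 525 and 334 in the Mbd3 knockdown. It was 2.57-fold lower at day 4 in control cells, 1.32-fold after Chd4 knockdown and 1.57-fold after Mbd3 knockdown, and the control at day 4 was the lowest array. limma gave a day difference of -0.81 (SE 0.22), lower in 3 of 3 lines, which did not pass (adjusted p = 0.25). Actl6b stayed under the floor on all these arrays, as given above. The REST corepressor gene Rcor1 ranged from 226 to 307. Of the microRNA genes, Mir9-2 and Mir124a-3 were under the floor on every array, Mir9-1 was above it on 1, and Mir9-3 and Mir124a-2 lay between 32.6 and 55.2. Under the floor, Mir9-2 was at 33.9 in control at day 4 and between 18.8 and 19.5 on the other arrays. These are probe sets of the genes, and the mature miR-9* and miR-124 were not analysed.

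As the measured subunit of widest range over the arrays, Smarcc2 was used to find genes of like pattern. Among 12925 other genes that passed the filter on low values, the highest Pearson correlations of log2 intensity with Smarcc2 were those of Klf7 (0.998), Slc22a23 (0.998), Auts2 (0.998), Trio (0.997) and Bmpr1a (0.996). These are over 6 arrays, and 664 of the 12925 genes were above 0.9, so such a value is not particular to the genes named here. Auts2, for example, was at 98.8 and 382 in control, 81.6 and 184 in the Chd4 knockdown, and 115 and 279 in the Mbd3 knockdown. Among the subunits, Smarca4 was at 0.964 with Smarcc2, Smarca2 at 0.887, Smarcc1 at 0.472, Phf10 at 0.179 and Dpf1 at -0.686. The Phf10 value is that of its brighter probe set. The dimmer Phf10 probe set was higher at day 4 in every line, as Smarcc2 was, and its correlation was not computed. Phf10 is therefore not read as unlike Smarcc2.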

How the data were processed

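The authors used GeneSpring GX 12.6.1, per the labels' design text, and the submitters' processing notes list RMA with no version. The deposited intensities are linear, run from 17.4 to 7980 and have array medians of 39.6 to 41.4. Whether a constant had been added to them is not stated, and 16 was subtracted in an alternative. No genome build is stated for the probe sets.

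Log2 of the deposited intensities was taken without further scaling. Symbols were updated by gene ID through RefSeq (GRCm38.p6; 23328 of 23521 probe sets with 1 symbol matched; 1814 with several symbols and 9016 with none were not used). Where the dimmer value lay under 41.4, a fold is given against 41.4 as "at least". limma 3.58.1 in R 4.3.3 fitted shRNA and day to 12926 genes with 2 residual degrees of freedom, with Benjamini-Hochberg adjustment and a threshold of 0.05. Its p-values set effects against departure from additivity, not against the spread between cultures. On simulated data it recovered 28% of changes of 1 on the log2 scale for day, 1% for Chd4 and 0% for Mbd3. For changes of 2 on that scale the shares were 66%, 52% and 31%. Its 0 calls therefore say little about differences of these sizes. Other steps used Python 3.11.15.

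The subunits, context lists and naming rule were chosen with earlier results of these data known. The rule named the listed subunits, the targets, subunits that share a position with them, other subunits past 2-fold, the REST and microRNA genes, and 5 genes most correlated with the subunit of widest range. Other settings tried were quantile normalization, median centring, the mean of probe sets, other filters, the floor, 1.5-fold, an intensity trend, and leaving out a line.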

Additional observations from a re-analysis of the deposited data

Results flagged for a closer look

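Phf10 differed between the days in opposite directions in control and in the Chd4 knockdown, by at least 1.2-fold in each, with log2 differences of 0.48 and -0.41. Against control, it was higher in the Chd4 knockdown at day 0 (0.54) and lower at day 4 (-0.35). With 1 array per group the opposite directions were not tested, and the dimmer Phf10 probe set gave 1.01 and 0.22 between the days and 0.37 and -0.42 against control.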

How the results depend on the processing

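No paired analysis was possible because the labels carry no replicate numbers, so there was no replicate block to add; the shRNA term of the limma fit already compares the days within each line. With 16 subtracted before log2, 2 subunits in place of 1 were 2-fold higher at day 4 in control (Smarca2 at 1.49 joined Smarcc2). In the Mbd3 knockdown 1 in place of 0 was (Smarca2, 1.03), and 1 in place of 0 was higher in the Chd4 than in the Mbd3 knockdown at day 4 (Dpf3, 1.31). Under that setting the count of all genes past 2-fold went from 383 to 642 and from 360 to 640 between the days in the Chd4 and Mbd3 knockdowns. It went from 169 to 324 and from 91 to 206 for Chd4 and Mbd3 against control at day 0, from 1133 to 1711 for Mbd3 at day 4, and from 140 to 295 and 147 to 266 between the knockdowns. At 1.5-fold, 2, 1 and 2 subunits were higher at day 4 in control, Chd4 and Mbd3 knockdown, the last count including Smarca2, whose bound at the floor is 1.41-fold. At that fold 1 was lower in the Chd4 knockdown than in control at day 4, and 1 was higher than in the Mbd3 knockdown. That looser fold raised the count of all genes in each comparison, to between 601 and 3937. Without the control line limma called 1 subunit (Smarcc2) and 683 genes between the days, in place of 0 and 0; without the Chd4 or the Mbd3 line it called 0 and 0, with smallest adjusted p among the subunits of 0.35 and 0.75. Quantile normalization, median centring, the mean of probe sets, the filters and the floor moved no subunit past or below 2-fold. Intensities under the floor limit Actl6b, Dpf3 and Smarca2 most.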

Other observations

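Mir124-2hg, the host transcript of a miR-124 precursor, was not in the lists and was chosen after its values were seen. Its intensity was 26.5 at day 0 and 175 at day 4 in control, 29.4 and 25.4 in the Chd4 knockdown, and 25.8 and 32.1 in the Mbd3 knockdown. The control at day 4 was the single array above the floor of 41.4, at least 4.23-fold above each of the others. The probe set of the precursor gene Mir124a-2 read 52.9 and 42.8 in control, 55.2 and 32.6 in the Chd4 knockdown, and 46.4 and 47.7 in the Mbd3 knockdown, so it did not follow Mir124-2hg.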
